A study of Mus musculus with 6 samples.

Results

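Chromatin accessibility at 7 genes for osteoblast transcription factors, Sp7, Dlx3, Dlx5, Dlx6, Msx1, Msx2 and Atf4, was compared between skeletal stem and progenitor cells (SSPCs) of young and middle-aged mice. The 7 genes were taken by name from 21853 annotated protein-coding genes, for their known roles in bone. The rule used no value measured here, but earlier results of these data were known when the genes were chosen. For each gene, the called ATAC-seq peaks were collected in 2 places: within 1000 bp either side of any protein-coding transcription start site (TSS), and over the gene body with 20000 bp upstream of it. These stretches held 14 of the 63840 regions into which the peaks of all libraries merged. Both groups were bone marrow SSPCs from the tibiae and femora of C57BL/6 mice, with no treatment and no engineered allele named, grown on plastic and used at passage 1. The groups differed by age, which the labels give only as young (3 libraries) or middle-aged (3 libraries). The cells came from at least 3 mice, but which mouse gave which library is not stated, so a p-value measures the spread between libraries. ATAC-seq uses a transposase that inserts adapters into open DNA, and a peak is a place where the resulting reads pile up.

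An osteoblast forms when a mesenchymal progenitor switches on Runx2 and then Sp7 (osterix), a zinc-finger factor without which bone is not laid down. Homeodomain proteins of the distal-less (Dlx) and muscle-segment (Msx) families act around this step and bind short AT-rich sites, with Dlx proteins mostly known as activators and Msx proteins mostly as repressors. Atf4, a leucine-zipper factor of the integrated stress response, is needed later, for amino acid supply and the heavy synthesis of collagen and osteocalcin.

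The lists held 35953, 43941 and 27628 peaks in young 1, 2 and 3, against 46364, 46745 and 48344 in middle-aged 1, 2 and 3. Relative depth, the genome-wide background of each list, ran from 1.65 extended reads per base in young 3 to 3.75 in young 1 and from 2.4 to 2.79 in middle-aged libraries. Young 3 was the shallowest library, with the shortest list. Of 10 stromal markers, 7 had a TSS peak in 1 or more libraries and 3 (Kitl, Ebf3 and Foxc1) in all 6, while Lepr, Prrx1 and Vcam1 had none. Of 10 hematopoietic markers, 9 had a TSS peak in all 6 libraries, among them Ptprc, Spi1, Adgre1 and Tyrobp. Of 8 endothelial markers, 5 had one in 1 or more libraries and 1 (Cdh5) in all 6. Over all protein-coding genes, 48.4% had a TSS peak in all 6 libraries and 38.5% in none. The markers thus matched the SSPC label only in part, since chromatin at blood cell genes was open as well. In such bulk libraries, fewer cells with an open site and less opening per cell cannot be told apart.

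Each peak was described by its percentile rank within its own list and by its fold enrichment. The rank is the share of peaks with a −log10 q at or below its own, with tied peaks given the mean of their ranks. The fold is the ratio of reads at the summit to the local background, each plus 1. The added 1 lowers the fold more where the background is low, as in a shallow library. A library with no peak entered a group mean at rank 0. Peaks at the start sites were called for 4, 5 and 3 of the 7 genes in young 1, 2 and 3 and for 5, 4 and 4 in middle-aged 1, 2 and 3, a difference of 0.333 genes between the means (p = 1 by two-sided exact permutation). Across libraries the genes fell into 3 kinds. Atf4, Dlx5 and Msx1 had a TSS peak in all 6 libraries, like 48.4% of all protein-coding genes. Msx2 had one in 5 libraries (4.5% of all genes) and Dlx6 in 2 (1.89% of all genes). Sp7 and Dlx3 had none in any library, like 38.5% of all genes. The plot of TSS peak ranks by library shows how far apart these levels were.

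**Figure D1:**
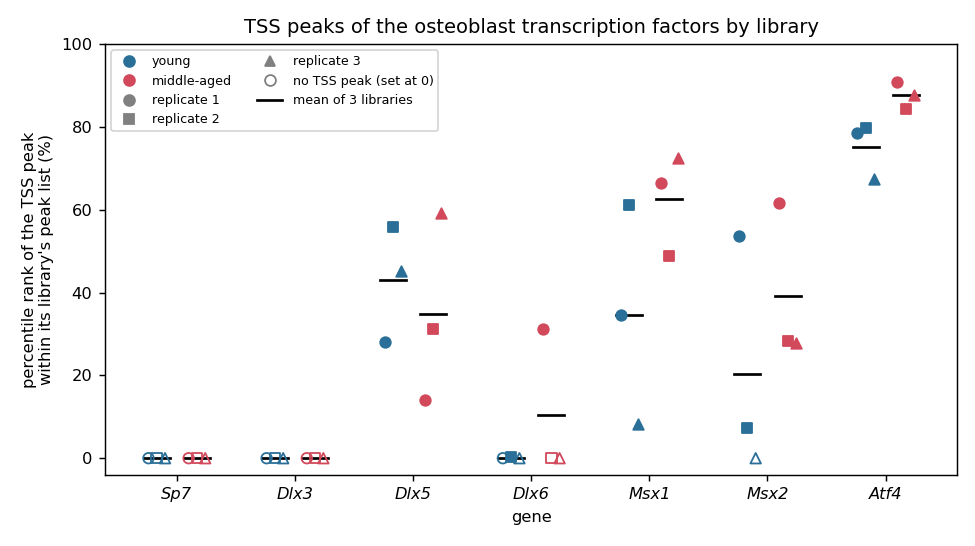
Percentile rank (%) of the highest-ranking TSS peak of each gene within the peak list of each library, with young libraries in blue, middle-aged libraries in red, a marker shape for each replicate number, open markers for libraries without a TSS peak and bars for the means of 3 libraries. Atf4 ranked highest in every library, Sp7 and Dlx3 had no TSS peak, and the 2 age groups were separate for Atf4 alone.

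Sp7 (ENSMUSG00000060284.7) lies on the minus strand at chr15:102356606-102367182 (mm10), with protein-coding start sites at 102366968 and 102366513. With no peak at either start site, its accessible chromatin lay in 5 other regions, 4 of them upstream. The steadiest was an intergenic region at chr15:102376749-102377199, with its highest summit 10010 bp upstream of the more distal start site, which was called in all 6 libraries. It ranked at 54.7, 61.3 and 11.8% in young 1, 2 and 3 and at 18.7, 36.7 and 69.2% in middle-aged 1, 2 and 3. The fold enrichment was 5.97, 6.88 and 4.57 in the young libraries and 4.19, 5.12 and 7.45 in the middle-aged ones. Young 3 ranked lowest and middle-aged 3 highest, with young 1 and 2 above the other middle-aged libraries, so the groups overlapped, with mean ranks of 42.6% in young and 41.5% in middle-aged libraries.

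The 201 bases around that summit are shown because this was the only accessible site at the Sp7 locus present in every library (chr15:102376878-102377078, minus strand, mm10). Capitals mark a Runx-type motif (TGTGGT), a palindromic Ebf-type motif (CCCNNGGG) and 2 GC boxes (GGGCGG, here in the other orientation) that overlap by 1 base.
Sp7 upstream: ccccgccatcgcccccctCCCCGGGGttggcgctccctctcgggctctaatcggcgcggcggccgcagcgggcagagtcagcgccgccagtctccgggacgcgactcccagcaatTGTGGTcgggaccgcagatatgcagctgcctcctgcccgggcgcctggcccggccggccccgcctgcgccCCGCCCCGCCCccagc
The window held 78.1% G and C, with a ratio of observed to expected CpG of 0.878. In all, 10 motifs were looked for on both strands of 201-base windows around the summits of all 63840 regions. TGTGGT occurred in 21.3% of these windows, GGGCGG in 19.8% and CCCNNGGG in 8.74%, so each match on its own was a common one.

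The other Sp7 regions came and went between libraries. An intronic region at chr15:102362719-102363184, 4056 bp inside the gene, was called in young 2 at rank 45.8% and in middle-aged 1, 2 and 3 at 20.4, 19.6 and 34.7%. A region 10426 bp upstream was called in young 2, middle-aged 1 and middle-aged 3 at ranks of 37.5, 30.8 and 33.6%. A region 14782 bp upstream was called in middle-aged 2 and 3 at 43.1 and 28.9%, and one 10932 bp upstream in middle-aged 1 at 9.04%. None of these was called in either of young 1 and young 3. The Sp7 locus held 1, 3 and 1 peaks in the young and 4, 3 and 4 in the middle-aged libraries (mean 1.67 ± 1.15 against 3.67 ± 0.577, SD, n = 3 each; p = 0.2 by two-sided exact permutation). When every list was shortened to its best 27628 peaks, the length of the young 3 list, the difference turned from 2 more to 1 fewer peak in middle-aged libraries. Over all 6 libraries Sp7 had 16 peaks, against a median of 8 over all genes, and 73.7% of genes had fewer, while the other 6 genes had from 2 to 11.

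Dlx3 (ENSMUSG00000001510.8; chr11:95120119-95125296, plus strand, TSS 95120119) encodes a homeodomain factor of teeth, hair and bone. It had no TSS peak, and its whole locus held 1 region, intergenic at chr11:95117004-95117438 with its highest summit 3015 bp upstream. That region was called in young 2 at rank 18.9% and fold 4.66, and in middle-aged 1, 2 and 3 at ranks of 37.2, 25.6 and 28.8% and folds of 5.24, 4.86 and 4.88. The 3 middle-aged ranks lay above that of young 2, and young 1 and young 3 had no peak. Of all regions, 5.43% were likewise called in 1 young and 3 middle-aged libraries, and the ranks of this region were not tested. The locus counts were 0, 1 and 0 against 1, 1 and 1 peaks. They did not differ beyond the spread between libraries (p = 0.4 by two-sided exact permutation). The 201 bases around the summit (chr11:95117004-95117204, plus strand, mm10) are printed in lower case, since none of the 10 motifs occurred in them.
Dlx3 upstream: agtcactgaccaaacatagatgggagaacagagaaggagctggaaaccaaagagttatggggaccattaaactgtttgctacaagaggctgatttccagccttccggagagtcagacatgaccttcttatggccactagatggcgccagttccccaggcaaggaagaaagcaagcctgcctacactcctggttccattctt
With 49.3% G and C and a CpG ratio of 0.164, this window was much poorer in CpG than the upstream window of Sp7.

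Dlx5 (ENSMUSG00000029755.10) and Dlx6 (ENSMUSG00000029754.13) are paired distal-less genes on chromosome 6 that point towards each other, Dlx6 at chr6:6863334-6868568 on the plus strand and Dlx5 at chr6:6877805-6882085 on the minus strand. Dlx5, the better known of the pair in osteoblasts, had a peak across its start sites (6882085 and 6882068) in every library. The Dlx5 ranks were 28.1, 55.7 and 45.3% in young 1, 2 and 3, against 14, 31.2 and 59.2% in middle-aged 1, 2 and 3, and the folds were 4.23, 5.85 and 6.21 against 4.09, 4.51 and 6.1. The lowest and the highest value both came from middle-aged libraries, so the groups overlapped. The mean rank was 43 ± 14% in young and 34.8 ± 22.8% in middle-aged libraries (SD, n = 3 each), a difference of −8.22 percentage points (p = 0.7 by two-sided exact permutation). Dlx5 was the only gene of the 7 with a lower mean rank in middle-aged libraries. The difference was −20.4 without middle-aged 3 and 2.18 without middle-aged 1. In equally long lists it was −17.5, where the peaks of middle-aged 1 and 2 were cut and counted as 0.

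The 201 bases upstream of the Dlx5 start (chr6:6882086-6882286, minus strand, mm10) are shown because the peaks ran into them. Capitals mark a CCAAT box, 77 bp before the start, and CAATTA, the reverse complement of the homeodomain-type motif TAATTG, 39 bp before it.
Dlx5 promoter: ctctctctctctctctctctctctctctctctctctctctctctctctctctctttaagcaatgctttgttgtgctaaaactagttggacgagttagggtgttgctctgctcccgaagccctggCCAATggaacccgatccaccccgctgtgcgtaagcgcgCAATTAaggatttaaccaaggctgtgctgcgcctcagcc
TAATTG occurred on either strand in 5.76% of 21853 promoter windows of the same length, and CCAAT in 31.8%.

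At Dlx6 a TSS peak was called in 2 libraries, at different places. In young 2 it lay 469 bp upstream at rank 0.332% and fold 3.15, among the weakest peaks of that list. In middle-aged 1 it ran across the second start site (6863797), with its summit in a coding exon, 347 bp downstream of the first. Its rank there was 31.1% and its fold 4.66. No library had both, and the other 4 had neither, so the rank difference of 10.3 rested on middle-aged 1 (p = 1 by two-sided exact permutation). The noncoding antisense gene Dlx6os1 overlaps Dlx6, so a peak there cannot be given to one of them. The 9236 bp between the ends of Dlx6 and Dlx5, known to hold conserved enhancers used in the forebrain and face, had 0 peaks in all 6 libraries.

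Msx1 (ENSMUSG00000048450.10; chr5:37820485-37824583, minus strand, TSS 37824583) encodes a homeodomain repressor of tooth and skull development. Its TSS peak ranked at 34.6, 61.1 and 8.28% in young 1, 2 and 3 and at 66.4, 48.7 and 72.5% in middle-aged 1, 2 and 3. The folds were 4.38, 6.25 and 4.39 in the young libraries against 7.12, 5.53 and 8.06. Young 2 lay above middle-aged 2 on both scales, so the groups overlapped. Their mean ranks were 34.6 ± 26.4% and 62.5 ± 12.4% (SD, n = 3 each), 27.9 percentage points higher in middle-aged libraries (p = 0.2 by two-sided exact permutation). The difference was 15.8 in equally long lists and 14.7 without young 3. The peak of young 3 was not the one the other libraries had: it lay 727 bp inside the gene, in the intron, and no peak crossed the start site in that library. Middle-aged 2 had a weak peak in the same place, at rank 1.74%, beside its peak at the start.

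The 201 bases before the Msx1 start (chr5:37824584-37824784, minus strand, mm10) are shown because 5 of 6 libraries had their summit within 37 bp of it. Capitals mark CCAAT boxes 93 and 56 bp before the start, the second as ATTGG on this strand, and a GC box (CCGCCC) 74 bp before it.
Msx1 promoter: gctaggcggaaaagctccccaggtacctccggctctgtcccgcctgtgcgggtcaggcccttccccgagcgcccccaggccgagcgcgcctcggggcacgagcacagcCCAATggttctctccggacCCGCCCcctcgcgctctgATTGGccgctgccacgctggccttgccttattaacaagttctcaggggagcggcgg
Among all promoter windows 38.4% held a GC box.

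Msx2 (ENSMUSG00000021469.9; chr13:53466884-53473074, minus strand, TSS 53473074) encodes the sister repressor, which acts in the growth of the skull. Its TSS peak lay downstream of the start, with summits 242 to 300 bp inside the gene. The summit of the highest-ranking peak, at 247 bp, was in the 5′ untranslated region. It ranked at 53.6 and 7.29% in young 1 and 2, was not called in young 3, and ranked at 61.7, 28.2 and 27.8% in middle-aged 1, 2 and 3. The folds were 5.9 and 3.83 in young 1 and 2 and 7.11, 5.05 and 4.75 in the middle-aged libraries. Young 1 lay between the middle-aged libraries on both scales, so the groups overlapped. The mean ranks were 20.3 ± 29.1% and 39.2 ± 19.4% (SD, n = 3 each), a difference of 18.9 percentage points (p = 0.4 by two-sided exact permutation). Without young 3, the library with no peak, it was 8.75, without middle-aged 1 it was 7.68, and in equally long lists it was −1.33. A second region, 2894 bp upstream, was called in middle-aged 2 at rank 1.68%.

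Atf4 (ENSMUSG00000042406.8; chr15:80255184-80257541, plus strand, TSS 80255184) had the highest-ranking TSS peak of the 7 genes in every library. Its ranks were 78.6, 79.7 and 67.3% in young 1, 2 and 3, against 90.8, 84.2 and 87.7% in middle-aged 1, 2 and 3. Fold enrichment was 7.83, 7.8 and 7 in young libraries and reached 12.2, 9.18 and 10.1 in the middle-aged ones. Each middle-aged library lay above each young one on both scales. The mean rank was 75.2 ± 6.89% in young and 87.6 ± 3.29% in middle-aged libraries (SD, n = 3 each), a difference of 12.4 percentage points. This was the largest separation that 3 libraries against 3 can show (p = 0.1, two-sided exact permutation, which is the smallest p possible), and after adjustment over 13447 genes with any TSS peak p was 0.358 (Benjamini-Hochberg).

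Atf4 alone of the 7 had all middle-aged ranks above all young ranks, and none had the reverse. Of all genes with a TSS peak, 27.6% had all 3 middle-aged ranks above all 3 young ranks and 0.268% the reverse, so 1 gene of the 5 with a TSS peak was not more than that background. Ranks were higher in middle-aged libraries in general, with a median difference of 5.6 percentage points over the 13447 genes and a range from −0.689 to 27.9 between the 5th and the 95th percentile. The difference of Atf4 lay within that range, as did those of Msx2, Dlx6 and, at its upper end, Msx1, while that of Dlx5 lay below it. With absent peaks at rank 0, the median over all 7 genes was 10.3. Over the 5 genes with a TSS peak it was 12.4. Over the same 5 in equally long lists it was 0, the value of Dlx6, which had no TSS peak left in any library there. In the equally long lists Atf4 kept its separation (72.2, 67.7 and 67.3% against 84.6, 73.3 and 78.5%), where 8.87% of genes had all middle-aged ranks above and 3.36% all young ranks above.

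**Figure D2:**
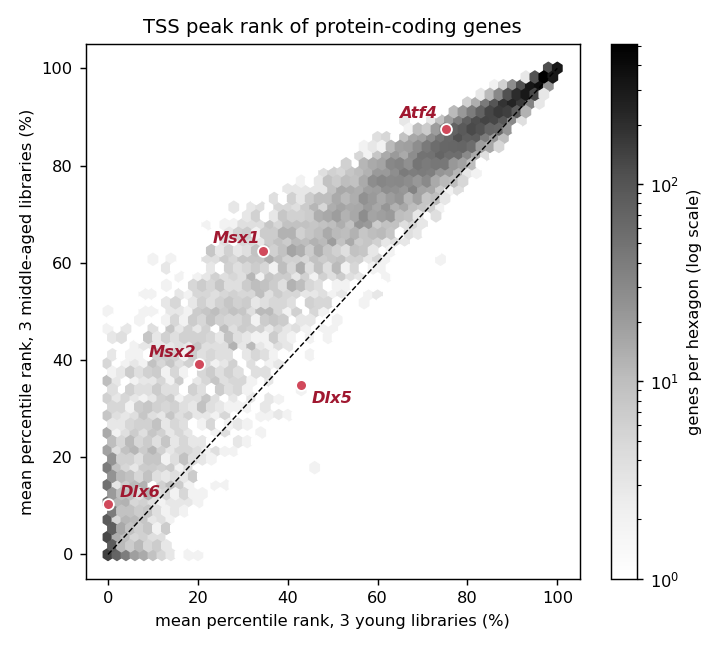
Mean percentile rank (%) of the TSS peak in 3 young libraries (horizontal axis) against 3 middle-aged libraries (vertical axis) for all protein-coding genes that had a TSS peak in any library, as hexagons shaded by number of genes on a log scale, with the 5 osteoblast factor genes that had one in red and equality as a dashed line. Most genes lay above the dashed line, as did Atf4, Msx1, Msx2 and Dlx6, and Dlx5 lay below it.

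Cell type markers were read beside this result. The ranks of the 10 hematopoietic markers summed to between 453.0 and 531.2 in young and between 586.6 and 593.7 in middle-aged libraries. For the 10 stromal markers the sums were 124.0 to 269.0 and 283.4 to 415.2, so for both lists the ages did not overlap. The same held for the median rank over all genes with a TSS peak in every library. It was 77.4 to 86.5% in young and 87.9 to 88.8% in middle-aged libraries, so the sums do not set these markers apart from genes in general. Taken singly, 3 hematopoietic markers (30% of those with a peak) and 2 stromal ones (28.6%) were separate, near the 27.6% of all genes, and in equally long lists 1 of each was. Csf1r had its TSS peak in young 2 and 3 only. The endothelial sums, over 8 markers, were 108.3 to 118.8 and 108.2 to 196.5, which overlapped. The part of cell makeup in the difference at Atf4 was not tested.

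A second scale, the summit height, is the number of reads at the summit divided by the genome-wide background of the library. For a called peak it does not depend on how long a list is, but a library with no peak enters at 0. The Atf4 summit stood at 15.7, 21.9 and 20 times background in young 1, 2 and 3 and at 35, 28.3 and 30.4 times in middle-aged 1, 2 and 3. The groups were again apart, with means of 19.2 ± 3.16 and 31.3 ± 3.44 (SD, n = 3 each) and a ratio of 1.63 (p = 0.1 by two-sided exact permutation, adjusted p = 0.19 by Benjamini-Hochberg). Atf4 was the only one of the 7 to separate in this way, while 52.6% of all genes with a TSS peak did. Over 10569 genes with a TSS peak in all libraries the median ratio of heights was 1.38, and the ratios at the 5th and 95th percentile were 1.1 and 1.65, which placed Atf4 near the upper end.

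Dlx5 heights were 6.67, 11.3 and 12.1 in young libraries against 6.69, 9.16 and 12.2, nearly the same span. Msx1 heights were 7.47, 12.4 and 8.5 against 14.2, 10.8 and 15.4 (p = 0.2 by two-sided exact permutation), and Msx2 heights 8.27, 5.65 and none against 11.8, 7.49 and 7.16 (p = 0.3 by two-sided exact permutation). Both pairs of groups overlapped. In equally long lists, where a cut peak counts as 0, the height difference was −5.98 at Dlx5, against −0.697 in the deposited lists. At Msx2 it was 1.18, against 4.18, and at Msx1 it was 4.02 in both.

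To set each gene against the general shift, heights were also divided by the median TSS height of the same library over those 10569 genes. On this scale Atf4 stood at 0.922, 0.912 and 0.943 in young and at 1.24, 0.958 and 1.06 in middle-aged libraries, close to 1 in both ages. The groups did not overlap, though middle-aged 2 was only slightly above young 3. Of all genes 5.47% had middle-aged libraries all above and 5.81% young libraries all above. Dlx5 stood at 0.391, 0.471 and 0.571 against 0.236, 0.31 and 0.425, a mean difference of −0.154, with young 1 below middle-aged 3. Msx1 averaged 0.451 and 0.468 and Msx2 0.24 and 0.307, each with overlapping groups. The homeobox genes with a TSS peak thus had one of less than the typical height, and Atf4 one of about the typical height.

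**Figure D3:**
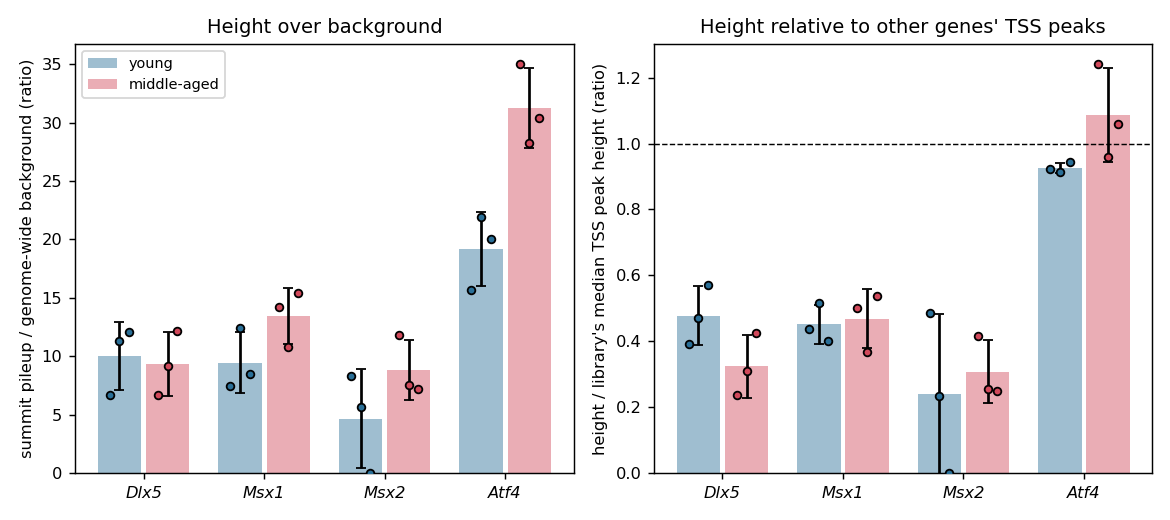
Summit height of the TSS peak over the genome-wide background of the library (left, a ratio) and over the median TSS height of the library (right, a ratio, dashed line at 1), with bars for the means of 3 libraries, error bars for the SD, points for libraries and a missing peak drawn at 0. Atf4 is the tallest and the only gene with separate groups in both panels, and the other genes overlap in both.

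The width of the TSS peak was compared as well. At Atf4 the TSS peak was 428, 478 and 358 bp wide in young 1, 2 and 3, against 1211, 608 and 837 bp wide in middle-aged 1, 2 and 3 (p = 0.1 by two-sided exact permutation, adjusted p = 0.668 by Benjamini-Hochberg). In 5 libraries a second peak lay 774 to 825 bp inside the gene, at ranks of 48.4, 50.3 and 29.7% in young 1, 2 and 3, against 67.3 and 59.5% in middle-aged 2 and 3. In middle-aged 1 no second peak was listed, and its TSS peak ran across both places. Widths were also all higher in middle-aged libraries for Msx2, where young 3 had no peak, which made 2 of the 5 genes with a TSS peak, against 14.4% of all genes with one.

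Both Atf4 sites are shown. The first window is the 201 bases before the start (chr15:80254983-80255183, plus strand, mm10), where capitals mark CCAAT boxes 117 and 76 bp before the start. The second surrounds the summit of the inner peak (chr15:80255908-80256108, plus strand, mm10), an intron in the coding transcripts that a retained-intron transcript covers. There capitals mark an AP-1 motif (TGANTCA) 782 bp downstream of the start, with a GC box on either side.
Atf4 promoter: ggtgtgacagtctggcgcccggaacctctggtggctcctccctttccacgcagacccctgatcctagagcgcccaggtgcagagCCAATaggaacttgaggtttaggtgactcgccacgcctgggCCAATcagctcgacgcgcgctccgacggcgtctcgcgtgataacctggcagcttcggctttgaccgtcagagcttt
Atf4 intron: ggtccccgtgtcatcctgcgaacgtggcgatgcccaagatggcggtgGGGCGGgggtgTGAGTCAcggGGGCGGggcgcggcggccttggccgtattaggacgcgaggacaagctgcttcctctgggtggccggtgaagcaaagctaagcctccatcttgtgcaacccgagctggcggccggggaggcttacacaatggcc
AP-1 motifs occurred in 15.9% of all region windows. The motif TGATGCAA, which Atf4 binds together with C/EBP proteins, was in none of the printed windows and in 0.816% of region windows. These matches describe the letters only.

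Seen as whole loci, the 7 genes held 6, 10 and 5 peaks in young 1, 2 and 3, against 10, 11 and 10 in middle-aged 1, 2 and 3. Young 2 reached the middle-aged level, and young 1 and young 3 lay below it. The means were 7 ± 2.65 and 10.3 ± 0.577 (SD, n = 3 each), a difference of 3.33 (p = 0.3 by two-sided exact permutation). No locus had more peaks in each middle-aged library than in every young one, against 6.58% of all 16863 loci with a peak. In equally long lists the sign turned, to 2 fewer peaks in middle-aged libraries (p = 0.2 by two-sided exact permutation). No region of the 7 loci was called in all 3 libraries of one age and in none of the other, a pattern that 2.21% of all regions had for middle-aged and 0.036% for young libraries. The 3 regions called in all 6 libraries were the upstream site of Sp7 and the start sites of Dlx5 and Atf4.

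**Figure D4:**
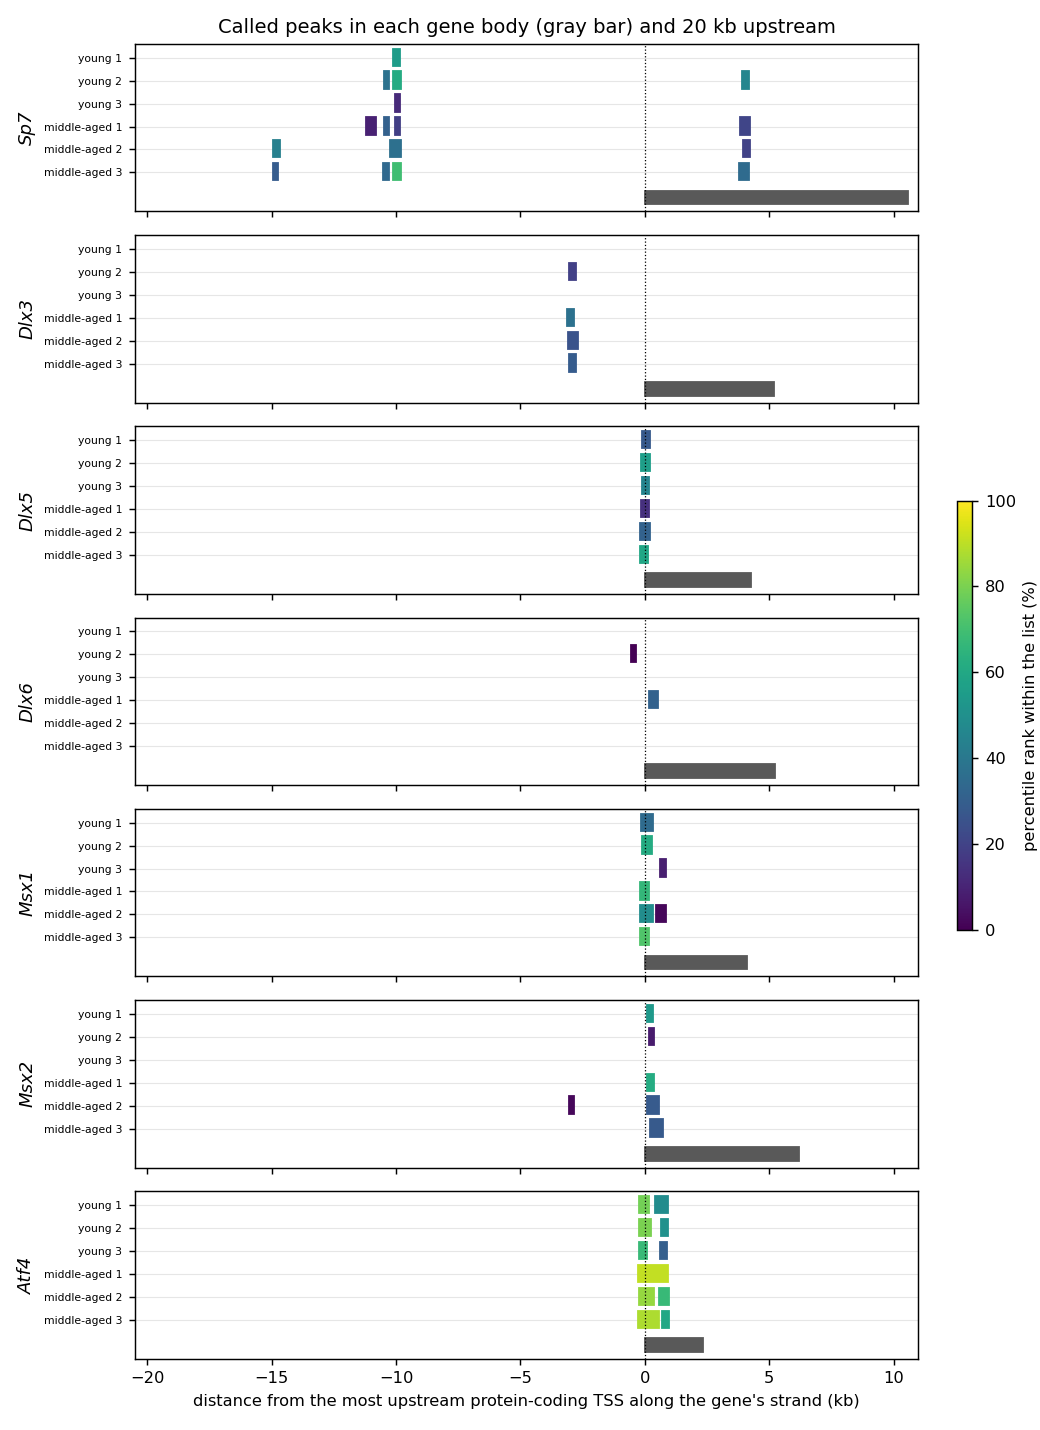
Called peaks in each library along the gene body (gray bar) and 20000 bp upstream, by distance in kb from the most upstream protein-coding TSS along the strand of the gene, colored by percentile rank (%) within the list. Peaks of Sp7 and Dlx3 lie away from the start (dotted line), those of the other genes cluster at it, and the young 1 and young 3 rows have the fewest peaks.

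Base composition at the start sites, which the choice of genes did not use, was alike in 6 of the 7 genes by its CpG ratio but not by its G and C content. Within 500 bp either side of the TSS, the ratio of observed to expected CpG was 0.237 at Sp7, lower than at most genes (26.9% of genes were lower). The other 6 ranged from 0.674 at Msx1 and Msx2 to 0.76 at Atf4, above the median of 0.561 over 21846 genes. The share of G and C ran from 52.8% at Msx2 to 62.6% at Msx1, with Sp7 inside that range at 54%. Of genes below 0.25, as Sp7, 83.6% had no TSS peak in any library. Of genes from 0.5 to 0.75, as Dlx3 (0.697), 14.6% had none, and of genes from 0.75, as Dlx6 (0.754), 84.9% had one in all 6 libraries. Sp7 was therefore like most genes of its CpG ratio in lacking a peak, whereas Dlx3 and Dlx6 were in the minority of theirs.

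Further lists of related genes were read on the same scale, as counts only. Of 37 other regulators of osteoblast formation, 36 had a TSS peak in 1 or more libraries, and in 11 all middle-aged ranks lay above all young ranks (30.6% of those with a peak, against 27.6% of all genes). Their median difference was 6.7 percentage points. The largest separate differences were at Zfp521, a zinc-finger antagonist of Runx2 (41.5% in young, 68.3% in middle-aged), and Bmpr1a, a BMP receptor (61.6%, 85%). Of 20 bone matrix and mineral genes, 11 had a TSS peak and 3 were separate (27.3% of those with a peak), with a median of 10.8. These were Col1a2, a chain of type I collagen (25.3%, 47%), Pth1r, the parathyroid hormone receptor (4.14%, 21.5%), and Phospho1, a phosphatase of mineralization (81.4%, 87.2%).

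Of 20 relatives in the Sp, Dlx, Msx and Atf families, 18 had a TSS peak and 4 were separate (22.2% of those with a peak, against 27.6% of all genes), with a median of 4.84. The 3 with the largest differences were Dlx1 (51.7%, 66.3%), the stress factor Atf3 (77.5%, 90.4%) and Sp3 (83.4%, 88.6%). Of 22 genes of the Atf4 pathway, 21 had a TSS peak and 11 were separate, which was 52.4% of those with a peak against 27.6% of all genes. Their median difference was 5.38, against 5.6 over all genes tested. The leading ones were Phgdh, which opens serine synthesis (3.59%, 30.3%), Eif2ak2, an eIF2α kinase (59.1%, 85.4%), and Cebpb, a partner of Atf4 (51.2%, 72.5%). No gene of the 4 lists was separate in the opposite direction. In equally long lists the separate genes numbered 3 of the 37 regulators, 0 of the 20 matrix genes, 1 of the 20 relatives and 3 of the 22 pathway genes. There 1 regulator and 1 relative went the other way, where all genes with a TSS peak gave 8.87% and 3.36%. Of the genes named here, Zfp521, Atf3 and Eif2ak2 stayed separate in these lists, and Bmpr1a, Col1a2, Pth1r, Phospho1, Dlx1, Sp3, Phgdh and Cebpb overlapped. The lists were chosen with earlier results of these data known, and the share in the Atf4 pathway was not compared by a test.

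**Figure D5:**
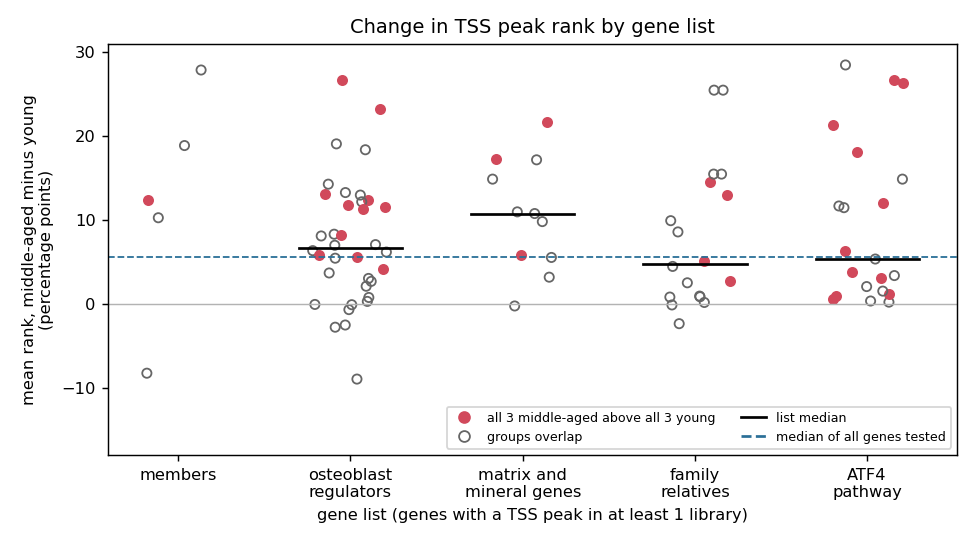
Difference in mean TSS peak rank, middle-aged minus young (percentage points), for the osteoblast factor genes (members) and the genes of 4 related lists that had a TSS peak in 1 or more libraries, filled where all 3 middle-aged libraries lay above all 3 young ones, with black bars for list medians and a dashed line for the median of all genes tested (5.6). The list medians run from 4.84 to 10.8, close to or above the dashed line, and most genes of each list lie above 0.

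Among the 99 genes of these lists, the ranks most like those of Atf4 over 6 libraries were those of Smad6, an inhibitor of BMP signals (mean absolute difference 2.54 percentage points), and Atf3 (2.93). Smad6 ranked at 84.2, 81.6 and 69.9% in young libraries against 88.1, 85.6 and 86.6%. The ranks most like those of Msx1 were of Zfp521 (7.26) and Trib3, a pseudokinase induced by stress (8.02), both also at their lowest in young 3. Young 3 also had the lowest median rank over the 10569 genes with a TSS peak in all libraries (77.4%). Nearest to Msx2 were Atf6 (14.6) and Phgdh (14.7), and nearest to Dlx5 were Sparc (16.5) and Slc7a11 (16.7), so no listed gene had ranks close to those of either.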

How the data were processed

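ATAC-seq peak lists of 3 young and 3 middle-aged SSPC libraries were used, with groups and replicate numbers from the sample titles. Upstream, the authors used bcl2fastq for base calls, Bowtie2 for alignment to mm10, Sambamba against duplicates and MACS for peaks, 1 list per library. A shift of reads for the transposase is not given in the sources used here. The authors deposited a score that is 10 times the −log10 q, cut to a whole number. The fold deposited by the authors is the ratio of summit pileup to local background, each plus 1, without a control library. The −log10 of the p-value and the −log10 of the q-value deposited by the authors belong to each library's own list. The lowest −log10 q ran from 1.33 to 1.78, so the lists ended at unlike limits. The authors' differential comparison (DiffBind) needs reads and was not repeated.

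TSSs were the 54361 protein-coding start sites of GENCODE (mm10), overlap was at least 1 bp, and coordinates count from 1. Summit pileup and local background were solved from fold and −log10 p under the caller's Poisson model, and 100.0% of pileups came out whole (tolerance 0.001) in every list. The lowest background of a list stood for its depth, since read numbers are not given. Sequences were read from the mm10 genome of RefSeq. Of the 10 motifs, those not spelled out with the sequences were TAATTA, TGACGTCA and GTGGGAA.

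Group means were compared by an exact two-sided permutation test over the 20 assignments of 6 libraries, whose smallest p is 0.1. P-values were adjusted over all genes with a TSS peak (Benjamini-Hochberg). The alternatives tried were a minimum −log10 q of 5, one q limit for all lists, equally long lists, thinning to the lowest background, TSS windows of 500 and 2000 bp, upstream stretches of 10000 and 50000 bp, other rank and height scales, leaving out each library and a replicate block. Peak width, the Msx1 peak across the start site and the median over all 7 genes were added after the data were seen. Scripts used Python 3.11.15, numpy 2.4.6, scipy 1.17.1 and pandas 2.3.3, and were tested on simulated data. The genes and lists were chosen with earlier results of these data known. Named from each list were up to 3 genes in each direction, with a TSS peak in at least 4 libraries, no overlap between ages and the largest difference in mean rank. The values of 1 such gene are not reported here. For each factor with a TSS peak in at least 4 libraries, the 2 list genes with the smallest mean absolute rank difference were named. Upstream of the genes, regions were named by their highest rank outside the TSS window, and the others after their values were seen.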

Additional observations from a re-analysis of the deposited data

How the results depend on the processing

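Of 278 values under other settings, 10 changed sign, 18 moved by more than the limits set for a change and 250 did not. Those limits were wide, since the 250 include the Dlx5 height difference of −5.98 in equally long lists, against −0.697 in the deposited lists. The count of 250 is therefore no measure of stability. With 3 libraries per age no p could pass 0.05 under any setting, so no call could be lost. In equally long lists (27628 peaks each) the differences, middle-aged minus young, were −0.667 for genes with a TSS peak, −1.33 for the Msx2 rank, −1 for peaks at the Sp7 locus, −2 for peaks over all 7 loci and 0 for the Dlx6 rank and height. The median rank difference of the genes with a TSS peak in the deposited lists was 12.4. Over the same genes it was 0 in equally long lists, a move within the spread between libraries. That 0 was the value of Dlx6, which had no TSS peak left in those lists. Without young replicate 3 the differences were −0.167 for genes with a TSS peak and 0.355 for the Dlx5 height. Without middle-aged replicate 1 they were 0 for genes with a TSS peak, 2.18 for the Dlx5 rank, 0.628 for the Dlx5 height, −0.111 for the Dlx6 rank and −1.53 for the Dlx6 height. The cause was not tested. Over all 6 omissions of a library, the Atf4 rank difference ran from 8.43 to 14.7 and its height difference from 10.1 to 13.5. The ranges were 14.7 to 41.1 for the Msx1 rank, 7.68 to 35.6 for the Msx2 rank, −20.4 to 2.18 for the Dlx5 rank, −0.111 to 15.4 for the Dlx6 rank and −0.167 to 0.833 for genes with a TSS peak. For heights they were −2.38 to 0.628 at Dlx5, −1.53 to 2.76 at Dlx6, 3.03 to 5.48 at Msx1 and 1.86 to 5.99 at Msx2. For peaks over all loci the range was 2.33 to 4.83, and for the median rank difference 7.68 to 15.4.

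Libraries of the same replicate number did not deviate together (correlations over 10569 genes of 0.00508, −0.0359 and −0.0687), so the numbers were not taken as pairs. With a replicate block the Atf4 rank difference was again 12.4, at the smallest p that 3 pairs allow (exact sign permutation, p = 0.25). Young 3, the shallowest library, lacked the Msx2 peak and the Msx1 peak across the start site. Thinning all libraries to that depth scaled pileup and background alike, so it could change a height only by dropping a peak. The height differences stayed at 4.02 for Msx1 and 4.18 for Msx2, which says nothing about an effect of depth. The reason for the missing peaks was not tested.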
